A study of Mus musculus with 4 samples.

Results

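The acetylcholine receptor genes Chrm1, Chrm2, Chrm3, Chrm4, Chrna4, Chrna5, Chrna7 and Chrnb2 were followed across the neurons of the mouse ventromedial prefrontal cortex. They are 8 of the 31053 features in the single-cell count matrices and were taken by name, with earlier results of these data known. The cells came from the prelimbic and infralimbic cortex of male C57BL/6 mice. Their labelled age of 8 weeks is, by the study's methods, that at virus injection, and the tissue was taken 6 weeks later. In every mouse, 5 rAAV2-retro viruses that each carried EGFP and a barcode had been injected into AI, DMS, BLA, LH and MD, which are the agranular insular cortex, dorsomedial striatum, basolateral amygdala, lateral hypothalamus and mediodorsal thalamus, so that neurons projecting there could take up a virus. There was no uninjected group. Of the 4 libraries, 3 were titled as unsorted cells of 1 mouse each (unsorted replicates 1 to 3), and 1 held EGFP-positive cells sorted from 3 pooled mice (the sorted library). Because the sorted library is 1 sample, it was not tested against the unsorted libraries. The p-values below set a difference against the spread between 3 or 4 libraries, the fourth being the sorted library.

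The counts are unique molecular identifiers (UMIs), and a level is given in CPM, the UMIs of a gene per 1000000 UMIs of the summed cells. The unsorted libraries held 7243 to 8040 cell barcodes and 83039497 to 87809114 UMIs, and the sorted library held 2075 cell barcodes and 54728191 UMIs. Pairs of libraries shared 5 to 30 cell barcodes. The authors' annotation places excitatory neurons in 7 subtypes named by layer and gene. In the unsorted libraries these held 317 L2/3-Calb1, 564 L2/3-Rorb, 315 L5-Bcl6, 317 L5-Htr2c, 1096 L5-S100b, 837 L6-Npy and 4319 L6-Syt6 neurons, 7765 in all. The gene in each subtype's name had its highest level there in all 7 subtypes. Inhibitory cells are not in that annotation. They were taken as cells outside it with at least 4 UMIs of Gad1 and Gad2 together and at most 3 of Slc17a7, the vesicular glutamate transporter of cortical excitatory neurons, which gave 1278 unsorted and 5 sorted cells.

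Acetylcholine reaches the cortex mainly from cholinergic neurons of the basal forebrain and acts on 2 receptor families. Nicotinic receptors are ion channels made of 5 subunits. In the brain the α4 subunit (Chrna4) and β2 subunit (Chrnb2) form the main high-affinity type, α5 (Chrna5) is an accessory subunit that can join them, and α7 (Chrna7) forms channels without other subunits. Muscarinic receptors are single proteins that signal through G proteins. M1 and M3 (Chrm1, Chrm3) couple to Gq and phospholipase C, whereas M2 and M4 (Chrm2, Chrm4) couple to Gi and lower cyclic AMP. Nicotinic excitation of deep-layer corticothalamic neurons and M1-dependent excitation of pyramidal neurons are well known in the prefrontal cortex.

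The promoter windows of Chrna4, Chrna5, Chrnb2 and Chrm2 are shown because the levels of these 4 genes were highest or next to highest in the same subtype, L5-Htr2c. Each window runs from 250 bases before to 50 bases after a RefSeq start on GRCm38.p6, 5′ to 3′ on the gene's strand. Capitals mark every GC box (GGGCGG on either strand). Chrna5 has 2 windows in this table, and none was present for Chrm1. The windows lie at chr2:181039128-181039427 on the minus strand for Chrna4, chr9:54980630-54980929 and chr9:54981238-54981537 on the plus strand for Chrna5, chr3:89764583-89764882 on the minus strand for Chrnb2 and chr6:36387834-36388133 on the plus strand for Chrm2.
Chrna4: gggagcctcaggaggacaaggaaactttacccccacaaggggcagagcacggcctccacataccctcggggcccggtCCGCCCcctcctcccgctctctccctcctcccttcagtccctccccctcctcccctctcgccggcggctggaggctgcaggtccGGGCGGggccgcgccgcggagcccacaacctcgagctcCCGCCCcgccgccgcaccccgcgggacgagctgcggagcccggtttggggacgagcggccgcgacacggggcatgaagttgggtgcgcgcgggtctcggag
Chrna5 upstream start: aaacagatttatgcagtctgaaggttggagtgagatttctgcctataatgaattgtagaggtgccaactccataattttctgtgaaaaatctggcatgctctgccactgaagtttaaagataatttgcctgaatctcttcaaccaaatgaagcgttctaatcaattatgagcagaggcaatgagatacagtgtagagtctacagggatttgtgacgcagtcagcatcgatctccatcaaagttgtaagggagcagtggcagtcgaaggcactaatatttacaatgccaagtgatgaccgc
Chrna5 downstream start: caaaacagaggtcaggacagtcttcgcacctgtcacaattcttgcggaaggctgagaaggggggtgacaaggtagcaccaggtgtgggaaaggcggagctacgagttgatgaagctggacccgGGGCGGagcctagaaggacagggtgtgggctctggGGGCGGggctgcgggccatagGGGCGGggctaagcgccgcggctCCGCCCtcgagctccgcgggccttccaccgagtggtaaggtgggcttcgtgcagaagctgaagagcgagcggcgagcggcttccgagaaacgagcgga
Chrnb2: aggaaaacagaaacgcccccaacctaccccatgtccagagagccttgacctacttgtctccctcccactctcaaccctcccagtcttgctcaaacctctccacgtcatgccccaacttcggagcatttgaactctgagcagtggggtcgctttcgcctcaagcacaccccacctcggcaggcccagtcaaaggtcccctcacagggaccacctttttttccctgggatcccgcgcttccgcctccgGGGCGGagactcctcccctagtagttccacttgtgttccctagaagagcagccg
Chrm2: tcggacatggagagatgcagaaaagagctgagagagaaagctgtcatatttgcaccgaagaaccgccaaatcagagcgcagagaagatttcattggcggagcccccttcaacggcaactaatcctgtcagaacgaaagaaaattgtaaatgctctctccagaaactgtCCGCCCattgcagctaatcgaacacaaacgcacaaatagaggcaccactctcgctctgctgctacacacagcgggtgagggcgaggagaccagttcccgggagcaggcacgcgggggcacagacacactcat

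The Chrna4 window belongs to a start inside the gene. The gene's 5′ end is at 181043546 in GENCODE M21 and at 181043579 in RefSeq. The Chrna4 window held 3 GC boxes and was 74.3% G or C, and the downstream Chrna5 window held 4 GC boxes at 65% G or C. The upstream Chrna5 window held none at 41.3%, and those of Chrnb2 and Chrm2 held 1 each. Among 32851 RefSeq promoter windows of the same length, 35.7% held a GC box and the median content of G and C was 52.7%. None of the 8 windows found for 7 of the genes held TATAAA on either strand, a motif that 13.6% of all windows held. These are matches of letters only. They do not show a bound site.

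Chrna4, on chromosome 2 (181018380 to 181043546, minus strand, GRCm38), encodes the α4 subunit and was split sharply by subtype. In L6-Syt6 neurons its level was 61.5, 63.5 and 60.7 CPM in unsorted replicates 1 to 3. In L5-Htr2c neurons it was 51.2, 65.6 and 54.8, so that these 2 subtypes overlapped at the top. L5-S100b neurons held 32.6, 30.4 and 32.0 CPM, clear of the groups above and below. L5-Bcl6, L2/3-Rorb and L6-Npy neurons lay together at means of 10.1 ± 0.79, 8.57 ± 2.81 and 8.27 ± 0.49 CPM (SD, n = 3). L2/3-Calb1 neurons were lowest, at 1.03, 1.97 and 2.42 CPM, or 11 UMIs in all. The highest subtype mean was 34.3 times the lowest. A Chrna4 UMI was present in 72.8% ± 2.21 of L6-Syt6 neurons and in 2.54% ± 0.64 of L2/3-Calb1 neurons (SD, n = 3). With every cell thinned to 10000 UMIs and shallower cells left out, to take out the difference in depth between cells, these shares were 45.2% and 1.35%.

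Chrnb2, on chromosome 3 (89746195 to 89764632, minus strand), encodes the β2 subunit and was far more even. L5-Htr2c neurons were highest, at 30.3, 38.4 and 38.5 CPM, above every unsorted library of every other subtype. L2/3-Calb1 neurons were lowest on average, at 17.5, 14.8 and 9.19. The other 5 subtype means lay between 16.9 and 21.6 CPM, and 5 of the 6 neighbouring pairs in the order overlapped between libraries. The highest mean was 2.59 times the lowest. L6-Syt6 neurons, highest for the α4 gene, held 17.5, 16.6 and 16.8 CPM of Chrnb2, next to lowest. The gene overlaps Adar, which lies on the other strand.

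Chrna5, on chromosome 9 (54980880 to 55007779, plus strand), encodes the accessory α5 subunit and had appreciable counts in only 2 of the 7 subtypes. L5-Htr2c neurons held 16.9, 29.3 and 24.1 CPM, and L6-Syt6 neurons 13.0, 13.0 and 12.2. These 2 subtypes did not overlap. All other subtypes had means of 1.33 CPM or less, from 2 to 16 UMIs each in the 3 libraries together, and all 4 neighbouring pairs among them overlapped. L6-Syt6 neurons gave 1273 Chrna5 UMIs against 2 in L2/3-Rorb neurons, a ratio of 80.0 in level with a 95% counting interval of 22.1 to 662. Against L6-Npy neurons, in the same layer, the ratio was 36.2 (16.6 to 98.9). A Chrna5 UMI was found in 24.4% ± 8.79 of L5-Htr2c and 22.6% ± 0.08 of L6-Syt6 neurons (SD, n = 3), or 18.7% and 11.1% at 10000 UMIs per cell. RefSeq places the gene's 3′ end 3641 bases beyond that of the GENCODE M21 model, so any reads there may be uncounted.

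Chrna7, on chromosome 7 (63098692 to 63212569, minus strand), encodes the α7 subunit and was scarce in excitatory neurons, with 139 UMIs in 7765 cells. Its level over all of them was 0.82, 0.75 and 0.81 CPM. No subtype exceeded 1.29 CPM in any unsorted library, and all 6 neighbouring pairs overlapped. No Chrna7 UMI was counted in L2/3-Calb1 neurons, where 3 UMIs would have made 0.496 CPM. At 2000 UMIs per cell, 0.145% of excitatory neurons had a Chrna7 UMI, against 0.171% of oligodendrocyte precursor-like, 0.225% of astrocyte-like and 0.034% of oligodendrocyte-like cells. Microglia-like and endothelial-like cells gave 0 Chrna7 UMIs, where 3 would have made 0.283 and 0.474 CPM. The precursor-like, astrocyte-like and oligodendrocyte-like shares rest on 6, 1 and 1 Chrna7 UMIs in 1356, 414 and 1521 cells. On such counts the excitatory share cannot be ranked against those groups, and neither expression nor its absence is read from it.

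**Figure D1:**
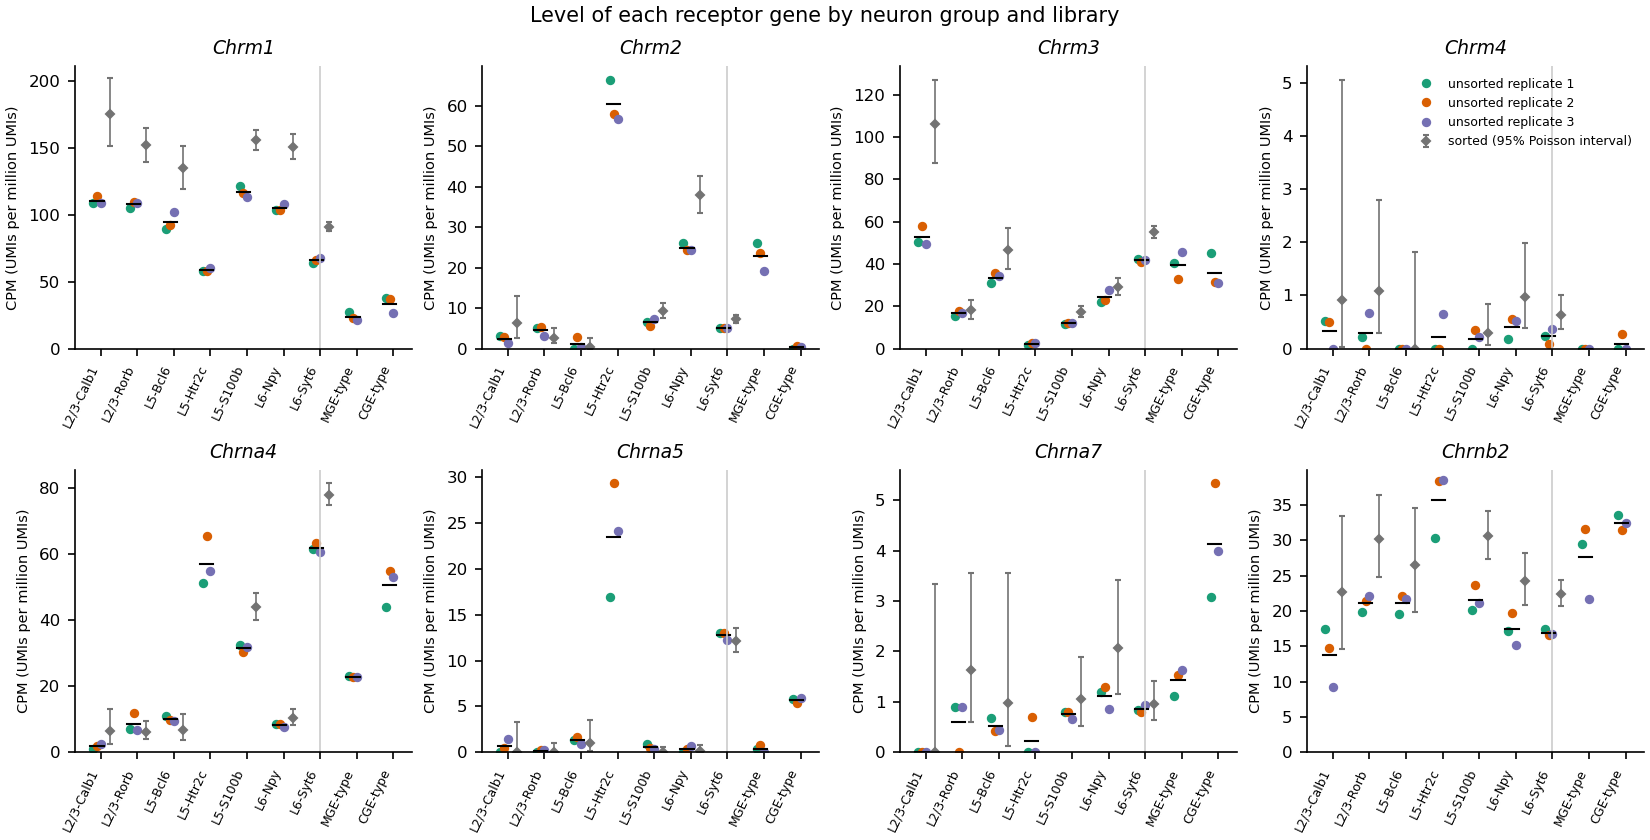
Each panel plots 1 receptor gene, with neuron group on the horizontal axis and CPM on the vertical axis. Circles are unsorted libraries, the black line is their mean, and grey diamonds are the sorted library with its 95% Poisson interval, drawn where it had at least 10 cells. Chrna4 sits near 60 CPM in L6-Syt6 and L5-Htr2c and near 0 in L2/3-Calb1, and Chrm2 stands out in L5-Htr2c, where Chrm3 is lowest.

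Chrm1, on chromosome 19 (8663789 to 8683587, plus strand), encodes the M1 receptor and was the most evenly detected muscarinic gene. L5-S100b neurons held 121, 116 and 113 CPM. L2/3-Calb1, L2/3-Rorb and L6-Npy neurons had means of 110 ± 2.97, 107.5 ± 2.33 and 105 ± 2.29, and L5-Bcl6 neurons 94.7 ± 6.75 (SD, n = 3). The lowest subtypes were L6-Syt6 at 63.9, 66.2 and 67.7 and L5-Htr2c at 58.2, 57.9 and 60.0 CPM, both below every unsorted library of the other 5. Above them, 3 of the 6 neighbouring pairs in the order overlapped between libraries. The highest mean was 1.99 times the lowest. A Chrm1 UMI was present in 89.9% ± 2.01 of L5-S100b and 56.2% ± 3.83 of L5-Htr2c neurons, or 68.1% and 42.8% at 10000 UMIs per cell.

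Chrm3, on chromosome 13 (9875486 to 10360847, minus strand), encodes the M3 receptor, the other Gq-coupled member, and separated every subtype from its neighbours in the order. From the top, L2/3-Calb1 neurons held 50.4, 58.0 and 49.4 CPM and L6-Syt6 neurons 42.5, 41.0 and 41.7. L5-Bcl6 (mean 33.6), L6-Npy (24.3), L2/3-Rorb (16.6) and L5-S100b (11.9) followed. L5-Htr2c neurons held 1.75, 2.79 and 2.61 CPM, from 11 UMIs in 317 cells. No neighbouring pair overlapped between libraries, and the highest mean was 22.1 times the lowest. A Chrm3 UMI was found in 58.2% ± 6.05 of L2/3-Calb1 and 2.94% ± 1.25 of L5-Htr2c neurons (SD, n = 3), or 38.3% and 1.77% at 10000 UMIs per cell.

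Chrm2, on chromosome 6 (36388084 to 36528414, plus strand), encodes the M2 receptor, a Gi-coupled autoreceptor on cholinergic terminals that some cortical neurons also express. L5-Htr2c neurons held 66.4, 57.9 and 56.8 CPM, more than in any library of any other subtype. L6-Npy neurons came next at 26.0, 24.4 and 24.3. The other 5 subtypes had means of 6.48 CPM or less, and among these 2 neighbouring pairs overlapped. In L5-Bcl6 neurons Chrm2 gave 8 UMIs, at 0, 2.98 and 0.45 CPM, and the level in L5-Htr2c neurons was 56.7 times higher with a 95% counting interval of 28.4 to 133. The share of cells with a Chrm2 UMI was 52.2% ± 3.25 in L5-Htr2c, 37.4% ± 0.91 in L6-Npy and 9.87% ± 0.36 in L6-Syt6 neurons (SD, n = 3), or 41.5%, 21.1% and 4.52% at 10000 UMIs per cell.

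Chrm4, on chromosome 2 (91927249 to 91928688, plus strand), encodes the M4 receptor and gave 42 UMIs in 7765 unsorted excitatory neurons, never more than 1 per cell. Its level was 0.24 ± 0.11 CPM (SD, n = 3), and no UMI was counted in L5-Bcl6 neurons, where 3 would have made 0.401. The mean is under the 0.474 and 0.375 CPM that a count of 0 allowed in endothelial-like and oligodendrocyte-like cells. Microglia-like and inhibitory cells gave 1 UMI each, with lower means of 0.098 and 0.051 CPM. All 6 neighbouring pairs overlapped and no order can be read. The GENCODE M21 model of this gene is 1440 bases of coding sequence with 0 bases after the coding end, whereas RefSeq continues 1147 bases further. In a 3′ assay, a low level and uncounted 3′ reads cannot be told apart for Chrm4.

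Each subtype was then compared with the mean of the other 6, using counts summed per library and subtype and edgeR's quasi-likelihood test with the library as a block. A call required 2 things, a p under 0.05 after Benjamini-Hochberg adjustment over all genes and a log2 fold change of 0.5 or more in either direction. The authors drew the subtypes from the same cells, so these p-values set a difference against the spread between libraries and are no independent test of the subtypes. Chrm4 and Chrna7 did not reach the minimum count, leaving 6 of the 8 genes. Over all 12850 genes tested, the median log2 fold change lay within 0.02 of 0 in each comparison.

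L5-Htr2c neurons differed in all 6 genes tested, where 28.2% of all genes were called. The Gi-coupled receptor gene Chrm2 had a log2 fold change of 3.63 (SE 0.148, edgeR adjusted p = 4.13e-33). The nicotinic genes Chrna5, Chrna4 and Chrnb2 were higher by 4.65 (SE 0.266), 2.21 (SE 0.126) and 0.87 (SE 0.131), with edgeR adjusted p-values of 5.51e-25, 4.05e-25 and 4.76e-08. Both Gq-coupled genes were lower, Chrm3 with a log2 fold change of -3.57 (SE 0.262) and Chrm1 of -0.82 (SE 0.0798). No other subtype had every tested gene called. When the cells were thinned to 10000 UMIs, the Chrm3 value became -4.30.

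L6-Syt6 neurons had 3 of 6 genes called, all higher, where 25.6% of all genes were called. These were Chrna5 by 3.81 (SE 0.151), Chrna4 by 2.51 (SE 0.0548) and Chrm3 by 1.43 (SE 0.0563) on the log2 scale, with edgeR adjusted p-values of 1.65e-34, 4.57e-50 and 1.52e-34. Chrm1, Chrm2 and Chrnb2 had log2 fold changes of -0.46, -0.37 and -0.21 and were not called. L6-Npy neurons also had 3 of 6 called, where 17.8% of all genes were called. Chrm2 was higher by 2.23 (SE 0.126, edgeR adjusted p = 2.13e-25), and Chrna4 and Chrna5 were lower at -0.94 (SE 0.152) and -2.23 (SE 0.586). Without unsorted replicate 3 the Chrna5 value was -2.95.

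L5-S100b neurons had 3 of 6 called, where 17% of all genes were called. Chrna4 was higher with a log2 fold change of 1.33 (SE 0.0847, edgeR adjusted p = 1.27e-22) and Chrm3 lower at -0.74 (SE 0.123). Chrna5 was lower at -1.41 (SE 0.466), from 16 UMIs. That call was lost without unsorted replicate 2 (-1.16, edgeR adjusted p = 0.105), without replicate 3 (-0.75, adjusted p = 0.352) and after thinning (-0.75, adjusted p = 0.403), and the value was -2.26 without replicate 1. Chrm1 was higher by 0.44, under the fold limit, with an edgeR adjusted p of 4.82e-18.

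L2/3-Calb1 neurons had 4 of 6 called, where 21.6% of all genes were called. Chrm3 had a log2 fold change of 1.67 (SE 0.109, edgeR adjusted p = 6.21e-22). Chrna4, Chrm2 and Chrnb2 were lower at -3.55 (SE 0.273), -1.72 (SE 0.346) and -0.71 (SE 0.154). The Chrnb2 call was lost without unsorted replicate 3, at -0.48, and thinning moved the Chrna4 value to -4.92. L2/3-Rorb neurons had 3 of 6 called, all lower, where 18.5% of all genes were called. They were Chrna5 at -3.51 (SE 0.707), Chrna4 at -0.96 (SE 0.163) and Chrm2 at -0.70 (SE 0.232). The Chrm2 call was lost without replicate 2 (-0.41), without replicate 3 (edgeR adjusted p = 0.0759) and after thinning (0.130), and the Chrna4 call after thinning (0.127).

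L5-Bcl6 neurons had 3 of 6 called, where 18.8% of all genes were called. Chrm3 was higher with a log2 fold change of 0.99 (SE 0.117, edgeR adjusted p = 5.09e-11), whereas Chrm2 was lower at -3.05 (SE 0.377) and Chrna4 at -0.59 (SE 0.180). Of the 8 Chrm2 UMIs in these neurons, none came from unsorted replicate 1, and the Chrm2 value ran from -5.40 without replicate 2 to -2.27 without replicate 1. The Chrna4 call was lost without replicate 2 (edgeR adjusted p = 0.0694), without replicate 3 (0.0534) and after thinning (0.384).

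**Figure D2:**
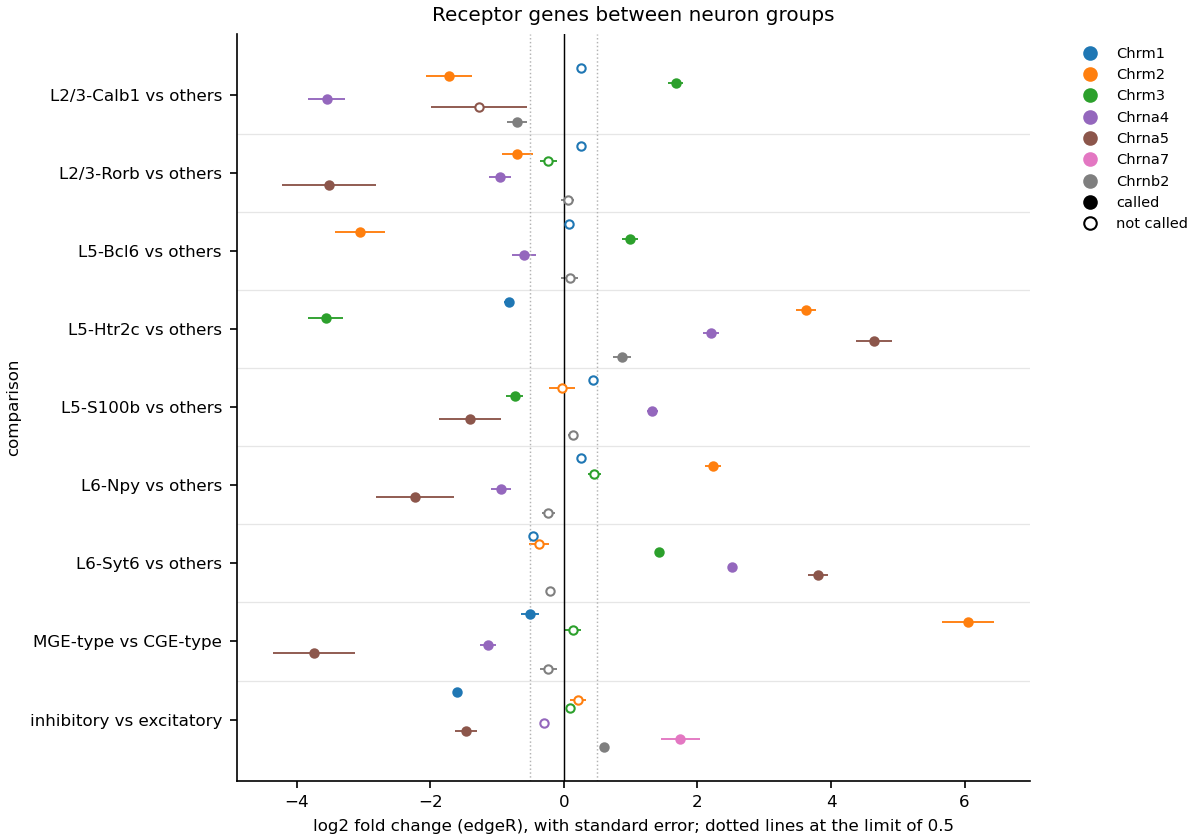
The horizontal axis is the edgeR log2 fold change with its standard error and the vertical axis lists the comparisons, 7 of a subtype against the others and 2 of inhibitory cells. Filled circles were called and open circles were not, and dotted lines mark the fold limit of 0.5. The standard error is the absolute log2 fold change over the square root of the test's F, which is unreliable near 0. For Chrna5 in L5-Bcl6 (log2 fold change -0.03) this division gave 3.77, and the value is not drawn. Chrm2, Chrna4, Chrna5 and Chrnb2 lie to the right and Chrm1 and Chrm3 to the left in L5-Htr2c.

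Inhibitory cells were compared with excitatory neurons of the same 3 unsorted libraries, and 4 of 7 receptor genes were called, where 40.4% of all genes were called. Chrm1 was lower, at 33.3, 31.5 and 23.8 CPM against 83.3 ± 1.01 (SD, n = 3) in excitatory neurons, a log2 fold change of -1.59 (SE 0.0673, edgeR adjusted p = 1.71e-23). Chrna5 was lower too, at 3.14, 3.21 and 3.08 CPM against 8.10 ± 0.36, with a log2 fold change of -1.47 (SE 0.166) that became -2.10 after thinning. Thinning left out cells under 10000 UMIs, which were 134, 131 and 88 inhibitory cells and 111, 58 and 52 excitatory neurons in unsorted replicates 1 to 3. The value of -2.10 thus reflects a changed set of cells as well as equal depth. Chrna7 was higher with a log2 fold change of 1.75 (SE 0.297, edgeR adjusted p = 2.11e-06), at 2.20, 3.51 and 2.91 CPM against 0.79 ± 0.041, and 0.635% of inhibitory cells had a Chrna7 UMI at 2000 UMIs per cell. No inhibitory library overlapped the excitatory ones for any of these 3 genes.

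Chrnb2 was the fourth, at 31.4, 31.9 and 27.9 CPM in inhibitory cells against 18.5, 19.0 and 18.2 in excitatory neurons, a difference of 0.61 on the log2 scale (SE 0.0713, edgeR adjusted p = 7.42e-10). Chrna4, Chrm2 and Chrm3 were not called, with log2 fold changes of -0.30, 0.21 and 0.10. Inhibitory cells were shallower, with medians of 13277 to 14101 UMIs per cell against 21343.5 to 23213. They also held more RNA of other cell types. Microglia markers summed to 57.1 to 171 CPM against 1.87 to 17.8 in excitatory neurons (7 of 7 genes called higher), and endothelial markers to 24.3 to 132 against 5.55 to 11.3 (6 of 6). Oligodendrocyte precursor markers summed to 35.2 to 41.8 against 0.95 to 5.66 (6 of 6), oligodendrocyte markers to 88.5 to 146 against 21.6 to 30.3 (5 of 6) and mural markers to 40.0 to 55.1 against 10.8 to 17.0 (5 of 5). None of these markers was at 0 over the inhibitory cells of any library, and their part in the result was not tested.

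Among the inhibitory cells, 421 had an Lhx6 UMI and none of Adarb2 (MGE-type) and 752 had at least 2 Adarb2 UMIs and no Lhx6 (CGE-type), genes that mark the medial and caudal ganglionic eminence lineages. Between these, 4 of 6 receptor genes were called, where 20.9% of all genes were called. Chrm2 was held by MGE-type cells, at 26.1, 23.6 and 19.2 CPM against 0, 0.56 and 0.33. The 179 UMIs against 3 gave a ratio of 75.6 with a 95% counting interval of 25.4 to 370, and the edgeR log2 fold change was 6.05 (SE 0.394, adjusted p = 2.84e-11), between 5.44 and 6.81 with a library left out and 7.83 after thinning. At 10000 UMIs per cell, 12.4% of MGE-type and 0.168% of CGE-type cells had a Chrm2 UMI, against 17.6% and 0.39% at their own depth.

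Chrna4 and Chrna5 went the other way. Chrna4 was higher in CGE-type cells, at 44.1, 55.0 and 53.1 CPM against 23.1, 22.9 and 22.9 in MGE-type cells, and the log2 fold change of MGE-type against CGE-type cells was -1.14 (SE 0.118, edgeR adjusted p = 5.59e-08). Chrna5 gave 56 UMIs in CGE-type and 3 in MGE-type cells, a ratio of 14.7 with an interval of 4.79 to 73.6 (log2 fold change -3.75, SE 0.616, -4.64 without replicate 2). Chrm1 was lower in MGE-type cells at -0.51 (SE 0.131, edgeR adjusted p = 0.00409), a call lost with DESeq2 (adjusted p = 0.338), under a stricter rule for inhibitory cells (-0.46) and without replicate 2 (edgeR adjusted p = 0.0727). Chrnb2 and Chrm3 had log2 fold changes of -0.23 and 0.13 and were not called. Chrna7 was not tested here, and its 41 UMIs in CGE-type and 11 in MGE-type cells gave a ratio of 2.94 (1.49 to 6.35). Oligodendrocyte markers summed to 125 to 262 CPM in CGE-type cells and 20.5 to 91.9 in MGE-type cells, and their part was not tested.

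Smaller inhibitory groups followed the peptide and calcium-binding genes. In 383 cells with at least 10 Sst UMIs, Chrm3 was at 46.8, 39.6 and 51.5 CPM and Chrm2 at 23.6, 24.2 and 18.3. In 41 cells with at least 3 Pvalb UMIs, Chrm3 was lower, at 11.3, 3.19 and 5.62, with Chrm2 at 50.8, 25.5 and 16.9 CPM. These cells gave 4 Chrna4 UMIs in all. In 470 cells with at least 10 Vip UMIs, Chrna4 was at 53.5, 58.3 and 51.8 CPM and Chrna5 at 6.50, 6.72 and 8.24, with 1 Chrm2 UMI. No test was run between these groups.

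Non-neuronal cells gave few receptor UMIs, with 1 exception. At 2000 UMIs per cell, 9.89% of oligodendrocyte precursor-like cells had a Chrna4 UMI, next to 11.7% of L6-Syt6 neurons. The share was 0.046% of oligodendrocyte-like, 0.099% of microglia-like, 0.339% of endothelial-like and 0.3745% of astrocyte-like cells. The non-neuronal cells had median depths of 3896 to 4193 UMIs. The level of Chrna4 in the precursor-like cells was 46.3, 62.4 and 55.4 CPM, from 284 UMIs in 1356 cells, and it was 1.55 or less on average in the other non-neuronal groups. Chrm1 was at 18.7, 16.9 and 14.9 CPM in the same cells, and Chrnb2 gave 14 UMIs.

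The precursor-like group also held mural markers, at 3018 to 3742 CPM. It was therefore split, after its values were seen, by the oligodendrocyte lineage genes Olig1 and Olig2. In the 1143 cells with a UMI of either gene, Chrna4 was at 51.8, 70.6 and 63.9 CPM and the mural markers summed to 94.8 to 195. In the 213 cells without one, Chrna4 and Chrm1 were both at 0 in all 3 libraries and the mural markers summed to 25350 to 27060. All 284 Chrna4 UMIs of the group were in the cells with an Olig1 or Olig2 UMI. The inhibitory markers Gad1 and Gad2 are at 0 in the group by the rule that chose it.

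**Figure D3:**
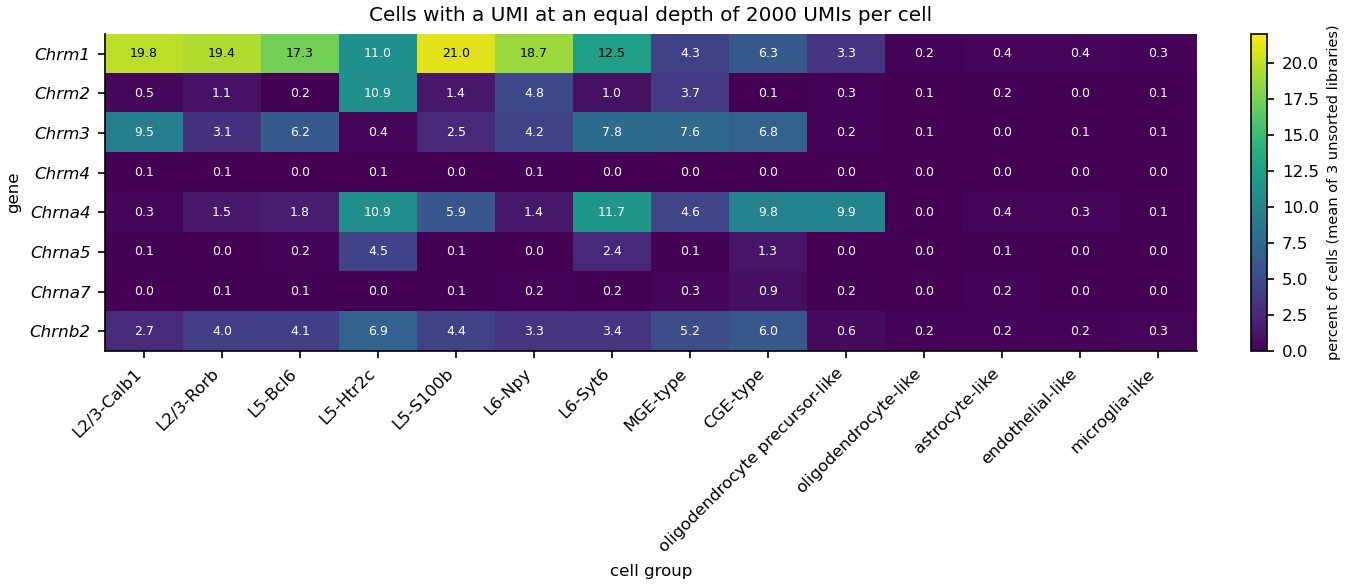
The heat map gives, for each receptor gene (rows) and cell group (columns), the mean percent of cells with a UMI over the 3 unsorted libraries, after each cell was thinned to 2000 UMIs. Chrna4 reaches 11.7% in L6-Syt6, 10.9% in L5-Htr2c, 9.84% in CGE-type and 9.89% in oligodendrocyte precursor-like cells, and the 4 remaining non-neuronal groups stay under 1% for every gene.

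In the sorted library, excitatory neurons were deeper, with a median of 31669 UMIs per cell. Its levels were above the range of the 3 unsorted libraries in all 6 subtypes with at least 10 sorted cells for Chrm1, Chrm3 and Chrnb2, and in 4 of 6 for Chrm2 and Chrna4. Chrna4 was below the range in the other 2 subtypes. Chrna5 was above it in none, within it in 4 and below it in 2. Sorting, virus uptake, pooling and depth cannot be told apart for these differences.

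Within each subtype, neurons with at least 5 UMIs of the viral barcode feature were compared with neurons that had none, in unsorted and sorted libraries with the library as a block. A count of 0 does not mark a neuron as unlabelled. The study describes many zero barcode counts in these RNA libraries, and 94 L6-Syt6 neurons of the sorted, EGFP-positive library were among those with none. The feature, named barcode in the matrices, was taken to pool the 5 viruses, which was not tested. L5-Htr2c had too few barcoded neurons to test. In the other 6 subtypes, 0 of the 28 gene and subtype pairs tested were called by edgeR, with 5 at an unadjusted p under 0.05, and DESeq2 also called 0, with 2 under 0.05. Of all genes, edgeR called 0.18% in L2/3-Calb1, 0.139% in L2/3-Rorb, 0.0686% in L5-Bcl6, and 2.7% in L5-S100b neurons. The shares of L6-Npy and L6-Syt6 neurons were 0.801% and 1.67%.

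The receptor difference with the lowest adjusted p was Chrna4 in L6-Syt6 neurons. Barcoded against barcode-free neurons held 58.3 against 63.7, 57.7 against 66.7 and 52.3 against 63.6 CPM in unsorted replicates 1 to 3, and 68.6 against 98.1 in the sorted library. Barcoded neurons were thus lower in 4 of 4 libraries, with a log2 fold change of -0.22 (SE 0.0568, edgeR adjusted p = 0.0444), which is under the fold limit of 0.5. The value lay between -0.28 and -0.17 with a library left out. The barcoded neurons were deeper, with library medians of 24582 to 38604 UMIs per cell against 21684 to 30096.5. With every cell thinned to 10000 UMIs the value was -0.21 (edgeR adjusted p = 0.0868), and with DESeq2 it was -0.23 (DESeq2 adjusted p = 0.131).

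Other differences had higher adjusted p-values. Chrm2 in L5-S100b neurons was at 6.36 against 4.11, 4.64 against 6.48 and 5.10 against 19.3 CPM in the unsorted libraries and 6.75 against 18.1 in the sorted one. The fitted log2 difference was -0.97 (SE 0.315), with an edgeR adjusted p of 0.0649. It passed the edgeR threshold with no filter on low counts (-0.93, edgeR adjusted p = 0.0185) and without unsorted replicate 1 (-1.37, edgeR adjusted p = 0.0104), and was -0.51 without replicate 3. Chrm3 in L6-Npy neurons was higher with barcode in 4 of 4 libraries, with 25.1 against 12.5, 25.5 against 19.4, 29.1 against 26.9 and 30.5 against 20.4 CPM (0.48, SE 0.168, edgeR adjusted p = 0.192). Chrna4 in L5-Bcl6 neurons was higher in 3 of 3 libraries (1.37, SE 0.566, edgeR adjusted p = 0.722), from 6 UMIs in the barcode-free cells.

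Whether the barcode difference itself differed between subtypes was tested in 1 model over all of them. Of the 6 receptor genes tested, 0 were called by edgeR, where 6.66% of all genes were called, and 2 had an unadjusted p under 0.05. These were Chrna4 (edgeR adjusted p = 0.116) and Chrm2. With no filter on low counts the Chrna4 value was called (edgeR adjusted p = 0.00845).

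**Figure D4:**
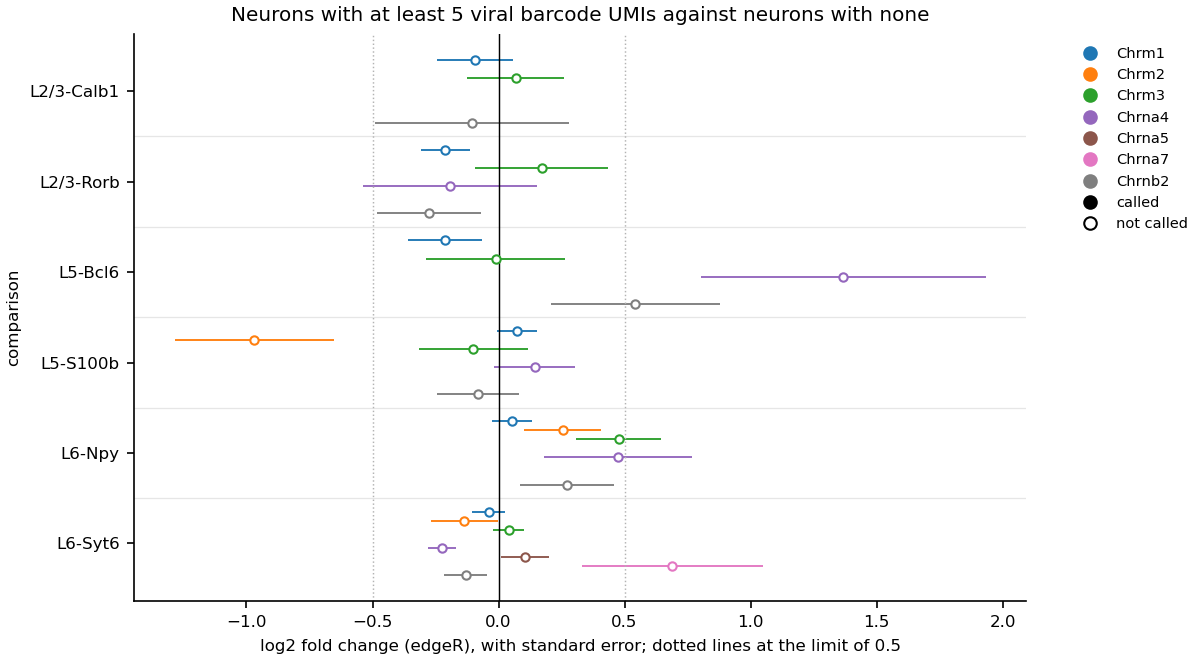
The horizontal axis is the edgeR log2 fold change of neurons with at least 5 viral barcode UMIs against neurons with none, with its standard error, and the vertical axis lists 6 subtypes. Every circle is open because no receptor gene was called, and dotted lines mark the fold limit of 0.5. Chrm2 in L5-S100b (-0.97) and Chrna4 in L5-Bcl6 (1.37) lie farthest from 0.

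Subunits of 1 receptor were then sought in the same cell. For each library and group the share of cells with UMIs of both genes at 10000 UMIs per cell was divided by the product of the single shares, so that 1 means co-detection at the rate of independent detection. These ratios are descriptions without a test. In L6-Syt6 neurons, 1009 cells had both Chrna4 and Chrnb2 at their own depth and the ratio was 1.02 ± 0.028 (SD, n = 3). It was 0.970 ± 0.044 for Chrna4 with Chrna5 (714 cells) and 0.961 ± 0.026 for Chrnb2 with Chrna5 (314 cells). In L5-Htr2c neurons the same ratios were 0.903 (64 cells), 0.866 (39 cells) and 1.02 (33 cells).

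Ratios farther from 1 came from fewer cells. Chrna4 with Chrnb2 gave 1.24 in L6-Npy neurons (39 cells, 1.14 to 1.40 over libraries) and 0.831 in L2/3-Rorb neurons (29 cells, 0.764 to 0.888). In CGE-type cells Chrna4 with Chrna5 gave 0.664 (13 cells, 0.453 to 0.885). At 5000 UMIs per cell, which keeps more cells, this ratio was 1.09, 0.846 and 0.607 in unsorted replicates 1 to 3. The muscarinic pair Chrm1 and Chrm3 gave 1.02 ± 0.013 in L6-Syt6 neurons, with 1884 cells that had both. Chrm2 with Chrm4 was found together in at most 5 cells of any subtype.

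**Figure D5:**
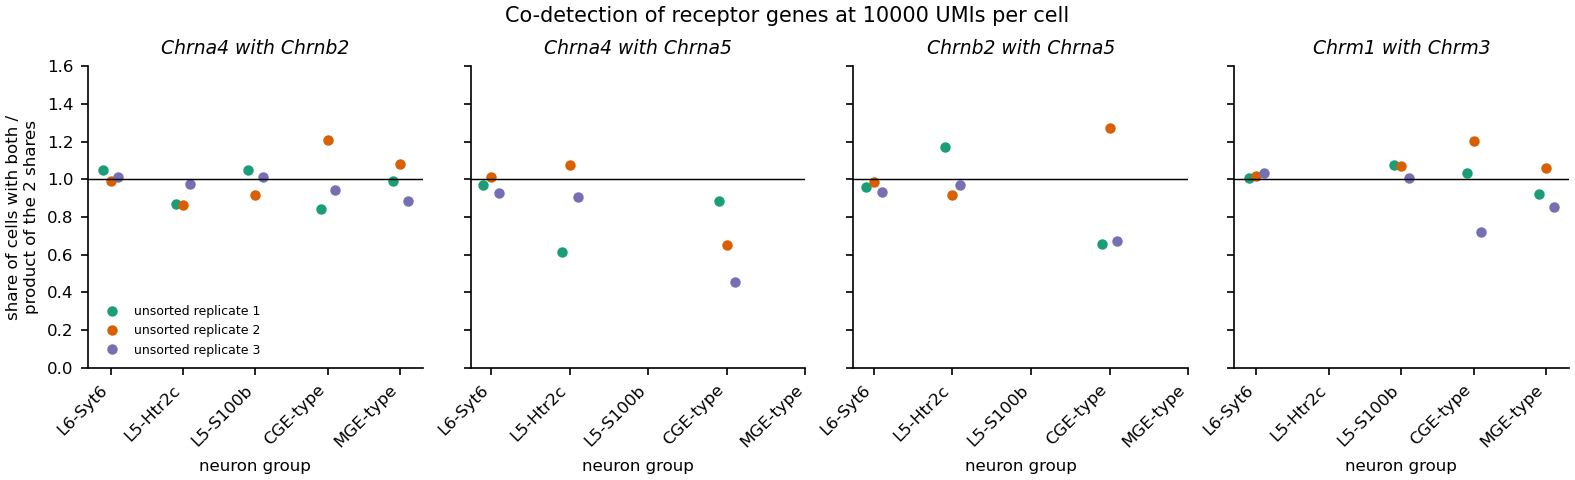
Each panel plots 1 pair of genes, with neuron group on the horizontal axis and, on the vertical axis, the share of cells with both genes over the product of the single shares at 10000 UMIs per cell. Points are the 3 unsorted libraries, the line marks 1, and groups with fewer than 10 cells holding both are not drawn. L6-Syt6 points lie within 0.925 and 1.05 in all 4 panels, and CGE-type and L5-Htr2c points spread farther.

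Across the 21 sums of library and subtype, the 9012 genes with a mean of at least 10 CPM were ranked by Pearson's r with each receptor gene, as a description only. The sums share libraries, and their genes share depth. Chrna5 was followed most closely by Rnf152 (r = 0.987) and Scg3 (0.972), and Chrna4 by Rap1gds1 (0.969) and Gng12 (0.957). For the Gq-coupled genes these were Slc30a3 (0.972) and Cyp46a1 (0.970) for Chrm1, and Atp6ap1l (0.976) and Arhgef28 (0.952) for Chrm3. Chrm2 was nearest to Gm9866 (0.906) and Ctxn2 (0.901), and Pcnt (0.918) was among the genes nearest to Chrnb2. The 2 scarce genes had lower values, with Csrp2 (0.810) and Neurod2 (0.806) for Chrna7 and Nup133 (0.650) and Mphosph10 (0.610) for Chrm4. Between receptor genes, r was 0.763 for Chrna4 with Chrna5, -0.960 for Chrna5 with Chrm1, -0.842 for Chrnb2 with Chrm3 and -0.733 for Chrm2 with Chrm3.

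The remaining 13 acetylcholine receptor genes did not reach 5 CPM in any subtype library, and 0 could be tested between subtypes. In inhibitory against excitatory cells 4 could be tested and 3 were called, all higher, where 40.4% of all genes were called. These were Chrna2 (log2 fold change 5.24, SE 0.565), Chrm5 (4.09, SE 0.767) and Chrna3 (2.50, SE 0.600). Chrna2, with 34 UMIs in inhibitory and 7 in excitatory cells, had a ratio of 45.4 (19.8 to 121). In MGE-type cells it gave 31 UMIs against 0 in CGE-type cells, at least 13.1-fold higher against a floor of 3 counts over the 3 libraries.

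Of the genes that make, load, take up and break down acetylcholine or choline, only Ache, the acetylcholinesterase gene, could be tested between subtypes. It was higher in L5-Htr2c (log2 fold change 1.45, SE 0.134), L6-Syt6 (0.79, SE 0.0638) and L2/3-Rorb neurons (0.52, SE 0.109) and lower in L2/3-Calb1 (-2.48, SE 0.224) and L6-Npy neurons (-0.54, SE 0.119). Its mean level ran from 3.95 CPM in L2/3-Calb1 to 41.5 in L5-Htr2c neurons. The L2/3-Rorb call held in 6 of 9 alternatives and that in L6-Npy in 8 of 9. Its levels in L2/3-Rorb neurons were 23.1 CPM on average.

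In inhibitory cells 7 of 7 tested genes of this list were called, 6 of them higher, where 40.4% of all genes were called. Slc5a7, the choline transporter, was at 35.6 CPM in inhibitory and 0.081 in excitatory cells (log2 fold change 8.63, SE 0.202). Slc18a3, the vesicular acetylcholine transporter, gave 80 UMIs against 0, at least 249-fold higher. Chat, the synthetic enzyme, gave 42 UMIs against 1, a ratio of 392 with an interval of 66.7 to 15860. All 3 had more UMIs in CGE-type than in MGE-type cells, with Slc18a3 at 76 UMIs against 0 (at least 20-fold), Chat at 38 against 0 (at least 10-fold) and Slc5a7 at 56.4 against 9.08 CPM. In cells with at least 10 Vip UMIs, Slc5a7 was at 111 CPM.

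Lynx- and Ly6-type modulators bind nicotinic receptors or help them assemble, and 10 of them and related chaperones were tested. Between subtypes, 4 to 6 of the 10 were called in each comparison, where 17% to 28.2% of all genes were called. In L5-Htr2c neurons, where the share of all genes was 28.2%, 5 were called, all higher, with a list median of 0.56 on the log2 scale beside a median of all genes within 0.02 of 0. Lypd1 was higher there by 3.94 (SE 0.0364), Lypd6b by 3.17 (SE 0.386) and Lypd6 by 2.66 (SE 0.395). Lypd1 was also higher in L5-Bcl6 (2.58) and L2/3-Calb1 neurons (1.99) and lower in L6-Npy (-4.31), L5-S100b (-2.39) and L6-Syt6 neurons (-1.15). Lypd6b was higher in L6-Npy neurons by 3.87, with at least 34.2-fold more than in L5-Bcl6 neurons, where it gave 0 UMIs. That 0 is part of the mean against which 3.87 and the 3.17 of L5-Htr2c neurons were set. The size of both values depends on it. Lynx1, a brake on nicotinic receptors, was lower in L2/3-Calb1 neurons (-2.22, SE 0.135). In inhibitory cells 6 of 10 were called against 40.4% of all genes, 3 in each direction, with Lypd6 higher by 6.59 and Lypd6b by 4.26, and both higher in MGE-type than CGE-type cells (6.51 and 5.08).

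Genes of the muscarinic G proteins and their effectors were called in 3 of 18 (L2/3-Calb1, where 21.6% of all genes were called) to 8 of 18 (L5-Htr2c and L6-Npy, 28.2% and 17.8% of all genes) between subtypes. Plcb4, a phospholipase C that Gq activates, was higher in L6-Syt6 neurons with a log2 fold change of 2.07 (SE 0.0344). In L5-Htr2c neurons the adenylyl cyclase genes Adcy5 and Adcy1, whose enzymes make cyclic AMP, were lower at -1.80 (SE 0.172) and -1.56 (SE 0.0572). Rgs2, a regulator of Gq signalling, was higher in L6-Npy neurons by 1.57 (SE 0.0420), where Rgs4 was lower at -1.32 (SE 0.0476). In inhibitory cells 5 of 18 were called, a lower share than the 40.4% of all genes. All 5 were lower, among them Rgs4 (-2.40) and Adcy1 (-1.63). Between MGE-type and CGE-type cells 6 of 17 were called, against 20.9% of all genes.

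Among channels that muscarinic receptors open or close, the called genes lay in opposite directions in some subtypes. In L5-Htr2c neurons 6 of 11 were called against 28.2% of all genes, all lower, with a list median of -0.61 on the log2 scale. In L2/3-Rorb neurons 6 of 11 were called against 18.5% of all genes, all higher, with a median of 0.60. L6-Syt6 neurons had 5 of 11 lower and 1 higher, against 25.6% of all genes, with a median of -0.51. The median of all genes was within 0.02 of 0 in each. Kcnq5, a potassium channel subunit of the M current, was lower in L5-Htr2c (-3.58, SE 0.167) and higher in L6-Npy neurons (1.24, SE 0.0542). Trpc5, a cation channel that Gq signalling opens, was lower in L5-Htr2c (-5.40) and L6-Syt6 neurons (-5.02) and higher in L5-Bcl6 neurons (2.83). Trpc6 gave 253 UMIs in L2/3-Calb1 and 0 in L5-Htr2c neurons, at least 65.3-fold higher. In inhibitory cells 8 of 11 channel genes were called against 40.4% of all genes, 3 higher and 5 lower. Between MGE-type and CGE-type cells 7 of 10 were called against 20.9% of all genes, with Kcnq5 lower in MGE-type cells (-2.94, SE 0.116).

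In the barcode comparisons within subtypes, these lists gave 3 calls, 2 of Lypd1 and 1 of Lynx1, both of the Lynx and Ly6 list. They were 1 of 7 genes of that list tested in L2/3-Calb1, 1 of 8 in L2/3-Rorb and 1 of 9 in L5-S100b, against 0.18%, 0.139% and 2.7% of all genes. Lypd1 was lower in barcoded L2/3-Calb1 (-0.62, SE 0.100, edgeR adjusted p = 0.000931, held in 6 of 9 alternatives) and higher in barcoded L2/3-Rorb neurons (0.55, SE 0.0998, edgeR adjusted p = 0.00138, held in 6 of 10). Lynx1 was higher in barcoded L5-S100b neurons (0.77, SE 0.124, edgeR adjusted p = 6.17e-05, held in 9 of 10). The barcode difference itself differed between subtypes for 5 of 10 genes of this list, 3 of 17 effectors and 1 of 11 channels, against 6.66% of all genes.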

How the data were processed

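Per the labels, droplet 3′ single-cell RNA-seq was run on dissociated prelimbic and infralimbic cortex. The authors aligned reads to mm10 with Cell Ranger and deposited UMI counts per gene and cell, with no normalization. They also deposited an annotation of excitatory neurons. By the paper's methods it was made with Seurat (3.1.4 per the labels) and Scanpy, and clusters were named by hand from known markers. That annotation's subtype entries were used, for cells within the study's limits (500 to 8000 genes, 1000 to 60000 UMIs, mitochondrial share under 20%). Viral barcode UMIs were taken from the barcode feature of the count matrices. No doublet caller was run. Counts were summed per library and group, leaving out sums of fewer than 10 cells, and tested in edgeR 4.0.16 (TMM, filterByExpr, quasi-likelihood, library as block) under R 4.3.3. DESeq2 1.42.0 was an alternative. The fits were tested on simulated data. The viral feature stayed out of library sizes and tests. Groups are paired because they come from the same library. Shares at equal depth are expected values under sampling UMIs without replacement, leaving out shallower cells. Sums of thinned cells left out shallower cells too. Levels of single groups carry 95% Poisson intervals, and ratios of few UMIs 95% exact intervals, which cover counting error only. Non-neuronal groups were chosen by marker UMIs and named after them. Alternatives were RLE factors, DESeq2, no filter, no library block, thinned cells, stricter cell rules, a barcode limit of 1 UMI, the sorted library added and each library left out. The text names the 8 receptor genes throughout, up to 3 called genes with the largest fold per list and comparison, and the 2 genes nearest to each receptor gene, of which 1 is not reported here. Members and lists were chosen with earlier results of these data known. Gene positions are from GENCODE M21, an annotation not stated to be the authors' own, and promoters from RefSeq.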

Additional observations from a re-analysis of the deposited data

How the results depend on the processing

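Of 33 called log2 fold changes of the receptor genes, 27 kept direction and call in every alternative, and of their 296 alternative values 282 kept the call, 14 lost it and 0 changed sign. The library block stood in all fits. Leaving it out (no replicate block) ended no call of a receptor gene. Of 16 counts of receptor genes called, 13 stayed within 1.5 times in every alternative. The L2/3-Rorb count of 3 was 1.0 after thinning and 2.0 to 3.0 with a library left out. The barcode count of 0 in L5-S100b was 1.0 with no filter and 0.0 to 1.0 with a library left out, and the count of 0 for differing barcode effects was 1.0 with no filter. Changes of sign came from uncalled values alone, and their cause was not tested. After thinning, log2 fold changes were -0.102 (Chrnb2, L2/3-Rorb), -0.135 (Chrnb2, L5-Bcl6), -0.0672 (Chrm2, inhibitory), and for barcode -0.0837 (Chrna4, L5-S100b), 0.0419 (Chrnb2, L5-S100b), -0.0129 (Chrm1, L6-Npy) and 0.0871 (Chrm2, L6-Syt6). With the sorted library added they were 0.0875 (Chrna5, L5-Bcl6) and 0.0289 (Chrm2, L5-S100b). For barcode in L5-Bcl6, Chrm3 was 0.0194 with DESeq2, 0.0265 with no filter and 0.0277 at 1 barcode UMI. In L6-Syt6, at 1 barcode UMI, Chrm2 was 0.0345 and Chrna5 -0.00438, and Chrm2 was 0.00162 with no replicate block.

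With a library left out, subtype values ran from -0.0291 to 0.104 (Chrnb2, L2/3-Rorb), -0.294 to 0.541 (Chrna5, L5-Bcl6), -0.255 to 0.494 (Chrm2, L5-S100b) and -0.503 to 0.0534 (Chrm2, L6-Syt6), and Chrm3 in MGE-type against CGE-type cells from -0.0635 to 0.307. Barcode values ran from -0.228 to 0.0775 (Chrnb2) and -0.228 to 0.0928 (Chrm1) in L2/3-Calb1, -0.124 to 0.348 (Chrm3, L2/3-Rorb), -0.437 to 0.24 (Chrm3, L5-Bcl6), -0.0757 to 0.395 (Chrna4, L5-S100b), -0.00438 to 0.0887 (Chrm1, L6-Npy), and -0.00949 to 0.0959 (Chrm3) and -0.108 to 0.0246 (Chrm1) in L6-Syt6.

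Thinning to 10000 UMIs lowered each share of cells with a UMI in the subtype with the highest level, by its construction. The shares were then 68.08% (Chrm1, L5-S100b), 41.48% (Chrm2, L5-Htr2c), 38.32% (Chrm3, L2/3-Calb1), 45.23% (Chrna4, L6-Syt6), 0.983% (Chrna7, L6-Npy) and 30.69% (Chrnb2, L5-Htr2c). Values of Chrm4 and Chrna7 in excitatory neurons rest on few counts, with 42 and 139 UMIs in 7765 cells.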
